A study of Danio rerio with 33 samples.

Results

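Male liver was compared with male gut of adult zebrafish across known microRNAs (miRNAs). The samples were the 3 male liver and 3 male gut libraries, 6 of the 32 small RNA libraries in the deposited count table, and the miRNAs were all those with a read in them. Of the 247 known mature miRNAs in the table, 233 had at least 1 read in these 6 libraries, against 238 over all 32. Both groups were untreated wild type fish of the Singapore strain, bought from a local supplier, and each library was a pool of RNA from several males. The other groups of the series were embryo, ovary, testis, eye, heart, brain of each sex, and female gut and liver. Names are given here without the prefix dre- that the files use.

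Mature miRNAs are short RNAs cut from the arms of a hairpin precursor. They guide Argonaute proteins to messenger RNAs, which are then degraded or translated less. Neighbouring hairpins are often transcribed together, and members of a family share the seed, the stretch near the 5′ end that pairs with the target. In vertebrates, miR-122 is the main miRNA of hepatocytes, whereas miR-192 and miR-194 mark the intestinal epithelium, and in mammals they are also made in the liver. The miR-143 and miR-145 pair is made by smooth muscle, which forms the wall of the gut.

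The total read count on known miRNAs was 1065249 to 4407777 in male gut and 979781 to 3171142 in male liver. Both groups shared 226 detected miRNAs. The 2 detected only in male gut and the 5 detected only in male liver had at most 2 reads in any library, and 9 of the 233 never passed 3 reads. Values below are the deposited normalized read counts. The TMM (trimmed mean of M-values) method behind them divides each library by an effective size and takes the bulk of miRNAs as unchanged. Near-identical family members, such as those of let-7, miR-196, miR-203 or miR-126, may have shared reads. The liver libraries were not equally close to each other. Male liver replicate 1 differed from replicates 2 and 3 by a chi-square per degree of freedom of 196 and 257, whereas replicates 2 and 3 differed by 43.7 and the gut libraries by 35.2 to 88.5. This measure grows with depth, which was 3171142 reads in male liver replicate 1 and 1331150 and 979781 in replicates 2 and 3. Male gut replicate 1, the deepest of the 6 at 4407777 reads, had values of 35.2 and 88.5. Results that rest on male liver replicate 1 are given with and without it.

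A log2 fold change is male liver over male gut throughout, so a positive value means more in male liver. A miRNA is said to be called where its change passed the test against 2-fold at an adjusted p of at most 0.05 (edgeR glmTreat). Of the miRNAs called, 12 were higher in male liver, which is 5.04% of the 238 tested, and 1 was lower, which is 0.42%. Against no change at all (edgeR quasi-likelihood F-test), 47 were higher (19.7%) and 73 were lower (30.7%), but with library size alone as the scaling 83 were higher and 36 lower. All 3 liver libraries lay above all 3 gut libraries for 59 miRNAs (24.8%) and below them for 78 (32.8%). The differences in the 2 directions had medians of near equal size but unlike extremes. The 73 lower miRNAs had a median log2 fold change of −0.996 and none was below −1.61, while the 47 higher ones had a median of 0.95 and reached 4.21. The count of lower miRNAs was sensitive to single libraries and to scaling. Without male liver replicate 1, 11 were called higher and 16 lower, and without any other of the 6 libraries there were 0 lower (edgeR glmTreat), with 3 to 13 at an unadjusted p of at most 0.05. With the size factors of DESeq2 the split was 11 higher and 8 lower, and with library size alone it was 25 higher and 0 lower, with 0 also at an unadjusted p of at most 0.05. These scalings moved the median log2 fold change of all miRNAs from −0.11 to −0.21 and 0.22.

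**Figure D1:**
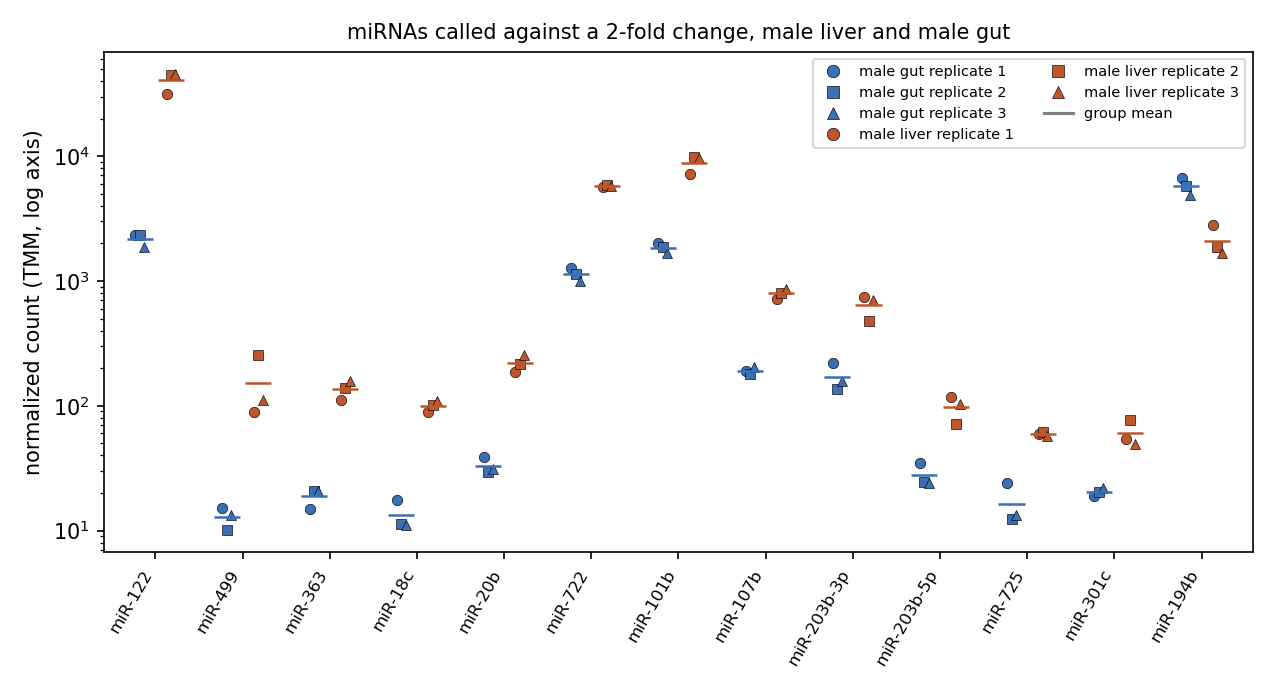
Normalized read count (TMM, log axis) of the 13 miRNAs called against a change of 2-fold, in each of the 3 male gut and 3 male liver libraries, with short lines at the group means. Liver points of the 12 miRNAs from miR-122 to miR-301c lie above all gut points, from a fitted difference of 18.6-fold for miR-122 to 2.98-fold for miR-301c, and those of miR-194b lie below.

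The hepatocyte miRNA miR-122 had the largest difference. Its normalized read count was 2355, 2340 and 1855 in the male gut libraries and 31463, 44970 and 45261 in the male liver libraries. Male liver replicate 1 was the lowest of the liver libraries but still far above every gut library. The means differed 18.6-fold, with a log2 fold change of 4.21 ± 0.36 (SE, n = 3 libraries per group) and an adjusted p of 9.87e-09 (edgeR glmTreat). By share of reads, miR-122 was the miRNA of rank 6 in male liver at 4.23% ± 1.08 (SD, n = 3) and of rank 45 in male gut at 0.172% ± 0.013. Male liver was not the richest source of it in the series. Female liver had a mean of 105502 and female gut one of 9475, while male gut, at 2183, was above ovary (1753) and embryo (1572), and eye had 0.546.

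Of the next 4 miRNAs by size, 3 are hairpin neighbours. The genes for miR-363, miR-19c, miR-20b and miR-18c follow each other in the RefSeq annotation of zebrafish assembly GRCz12tu, which was used here for gene order only, and they form a cluster related to the mammalian miR-17 to miR-92 clusters, known for promoting cell proliferation. miR-363 had 14.9, 20.9 and 20.95 normalized reads in gut and 111, 139 and 157 in liver, a log2 fold change of 2.87 ± 0.26. miR-18c had 17.6, 11.3 and 11.03 in gut and 89.5, 102 and 109 in liver (2.84 ± 0.29), and miR-20b had 38.8, 29.5 and 30.9 in gut and 187, 218 and 255 in liver (2.71 ± 0.27). Adjusted p values were 2.65e-07, 1.74e-06 and 1.74e-06 (edgeR glmTreat), and no liver library overlapped a gut library. The remaining neighbour, miR-19c, was higher by a smaller amount, with 123, 96.0 and 86.0 in gut and 253, 298 and 278 in liver. Its log2 fold change was 1.43 ± 0.22, which differed from no change (adjusted p 7.61e-06, edgeR quasi-likelihood) but did not pass the test against 2-fold (adjusted p 0.101).

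The other members of the miR-17 to miR-92 list had smaller differences. Of its 20 members, the 3 above were called, against 5.04% called higher over all miRNAs. In all, 6 differed from no change, all higher, against 19.7% over all miRNAs. The median log2 fold change was 0.35 over the list against −0.11 over all miRNAs. With library size alone, 15 of the 20 were higher, at a median of 0.73. miR-92a, the most abundant of them, had 95512, 100905 and 96862 normalized reads in gut and 104169, 112980 and 103701 in liver (log2 fold change 0.13 ± 0.14, adjusted p 0.474). miR-93 had 119, 123 and 120 in gut and 228, 237 and 194 in liver (0.87 ± 0.15, adjusted p 3.59e-05, edgeR quasi-likelihood).

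In 2 families 1 member passed the test against 2-fold and its relatives did not. miR-101b had 2013, 1866 and 1664 normalized reads in gut and 7154, 9761 and 9639 in liver, a log2 fold change of 2.26 ± 0.15 (adjusted p 2.46e-08, edgeR glmTreat). Its relative miR-101a was almost level, with 7862, 7912 and 6559 in gut and 7965, 8982 and 7290 in liver, groups that overlapped (0.12 ± 0.12, adjusted p 0.457, edgeR quasi-likelihood). Of all 11 groups, male liver had the highest mean of miR-101b, at 8851 against 8505 in female liver and at most 2031 elsewhere. miR-107b had 189, 180 and 203 in gut and 722, 806 and 858 in liver, a log2 fold change of 2.06 ± 0.16 (adjusted p 8.95e-07, edgeR glmTreat). miR-103 and miR-107a, which share its family, had 0.42 ± 0.13 and 0.34 ± 0.14 (adjusted p 0.0119 and 0.0380 against no change). Without male liver replicate 2 only 1 of these 3 family members differed from no change. In mammals, miR-103 and miR-107 have been tied to insulin sensitivity of the liver.

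miR-722 belongs to a series of miRNAs named from fish. It had 1268, 1135 and 1000 normalized reads in gut and 5642, 5891 and 5776 in liver, so the liver libraries lay close together, far above gut. The log2 fold change was 2.35 ± 0.14 (adjusted p 5.53e-09, edgeR glmTreat), the smallest p of the comparison. Of 18 tested miRNAs with names from the same fish series, 2 were called, miR-722 and miR-725, against 5.04% over all miRNAs. miR-725 was a low one, with 23.9, 12.3 and 13.2 in gut and 58.9, 61.4 and 57.5 in liver (1.76 ± 0.27, adjusted p 0.0250), and kept its call in 4 of the 6 fits that each left out 1 library, the adjusted p being at most 0.0607.

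miR-499, a miRNA of slow and cardiac muscle lying within myosin genes, had 15.2, 10.2 and 13.2 normalized reads in gut and 88.9, 254 and 110 in liver. Male liver replicate 2 held more than the other liver libraries, and the SD of the liver group was 89.9 on a mean of 151. The log2 fold change was 3.52 ± 0.40 (adjusted p 2.06e-06, edgeR glmTreat), and it was 2.92 to 3.80 when single libraries were left out. Heart had a mean of 1724. The other 7 striated muscle miRNAs (miR-1, the miR-133 forms and miR-206) did not differ from no change, and the sum over the list was 614 to 793 in gut and 668 to 1150 in liver. The part that muscle tissue had in the miR-499 value was not tested.

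The epidermal list was higher in male liver as a whole, at a median log2 fold change of 1.69, against 0.51 in females. Both arms of miR-203b were called, against 5.04% called higher over all miRNAs. miR-203a and miR-205, which with miR-203b are known from stratified epithelium and skin, differed from no change. All 4 list members thus did, against 19.7% higher over all miRNAs, but 2 of them are arms of the same miRNA. miR-203b-3p had 221, 136 and 158 normalized reads in gut and 750, 476 and 709 in liver (log2 fold change 1.90 ± 0.33, adjusted p 0.0250). miR-203b-5p had 34.9, 24.7 and 24.3 in gut and 117, 71.6 and 103 in liver (1.77 ± 0.32, adjusted p 0.0479). The list summed to 372 to 660 in gut and 1310 to 1905 in liver, but its members were far higher elsewhere, miR-205 having a mean of 766 in male liver, 6471 in embryo, 4752 in eye and 3280 in heart. The call of miR-203b-3p was lost in 2 of the 6 fits without 1 library, with adjusted p up to 0.0731, and that of miR-203b-5p in 4, with adjusted p up to 0.111. The part that other tissues had in these values was not tested.

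miR-301c and miR-130c come from neighbouring hairpins and from 1 family of shared seed. miR-301c had 18.8, 20.4 and 22.1 normalized reads in gut and 54.0, 77.4 and 49.2 in liver (log2 fold change 1.58 ± 0.21, adjusted p 0.0251, edgeR glmTreat). The call was lost in 1 of the 6 fits without a library, at an adjusted p of 0.210. miR-130c, for which RefSeq lists 2 hairpins, had 587, 552 and 474 in gut and 1120, 1466 and 1282 in liver (1.26 ± 0.16), which differed from no change (adjusted p 3.84e-07) and not from 2-fold (adjusted p 0.162). In the whole family of 8 members, 4 were higher than no change, against 19.7% over all miRNAs. Of the rest, 1, miR-130b, was lower than no change at −0.51, but no longer with library size alone or without male liver replicate 3.

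**Figure D2:**
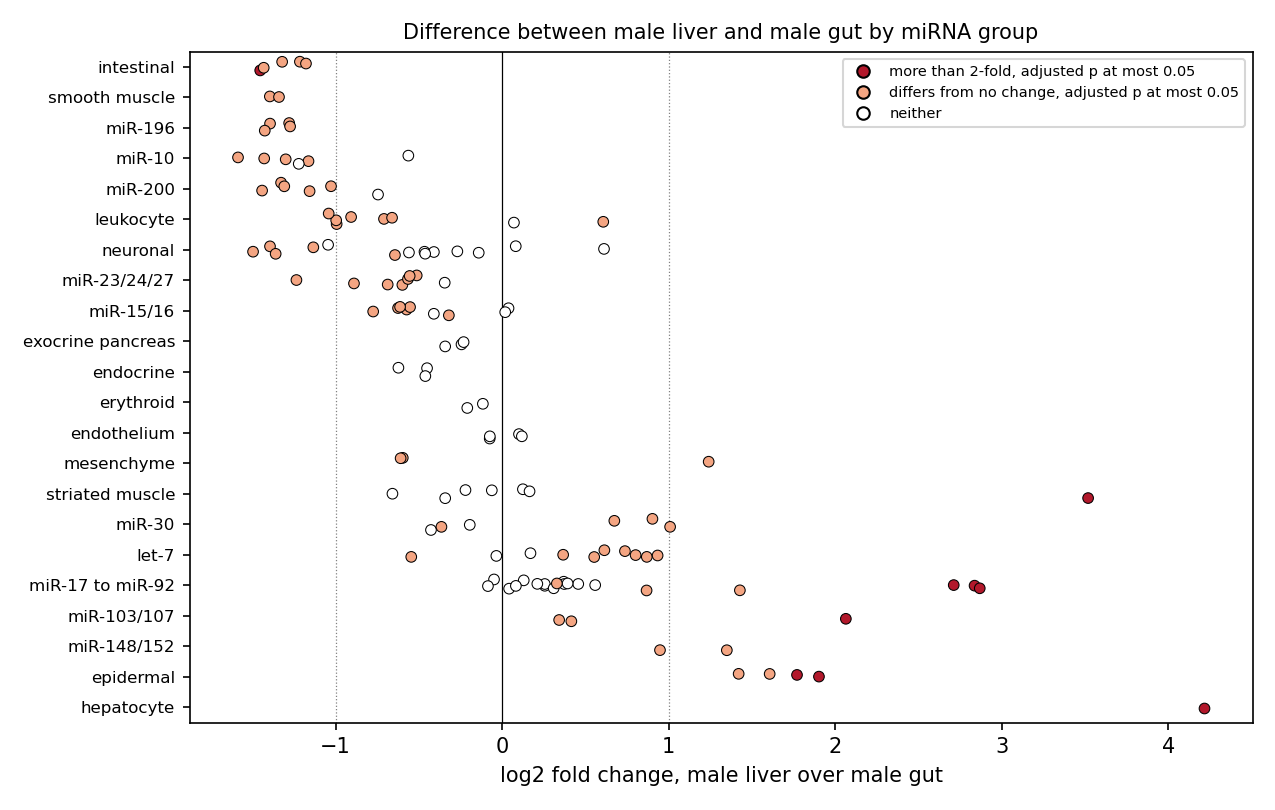
Log2 fold change of male liver over male gut (horizontal axis) for each miRNA of 22 groups (rows), coloured by the outcome of the tests, with dotted lines at 2-fold, leaving out miRNAs with at most 3 reads in every library. Intestinal, smooth muscle and miR-196 members lie between −1.18 and −1.45, most let-7 members lie above 0, and miR-122 stands at 4.21.

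The intestinal miRNAs were lower in male liver, yet remained abundant there. All 5 (miR-192, miR-194a, miR-194b and both arms of miR-459, a fish miRNA) differed from no change, with log2 fold changes of −1.18 to −1.45, a median of −1.32 against −0.11 over all miRNAs, and no overlap between libraries. The share lower than no change over all miRNAs was 30.7%. With library size alone 3 of the 5 differed from no change, and without male gut replicate 1 or male liver replicate 3 it was 4. miR-194b was the only one called. It had 6664, 5726 and 4888 normalized reads in gut and 2784, 1856 and 1669 in liver, a 2.74-fold difference (log2 fold change −1.45 ± 0.19, adjusted p 0.0466, edgeR glmTreat). That call was kept in only 1 of the 6 fits without 1 library, the one without male liver replicate 1, and the adjusted p reached 0.259.

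miR-194a was the miRNA of rank 2 in male gut. It had 218644, 207834 and 182523 normalized reads there and 104345, 90719 and 74143 in male liver (log2 fold change −1.18 ± 0.41, adjusted p 0.0171, edgeR quasi-likelihood). miR-192, whose hairpin lies beside that of miR-194a, had 61639, 55129 and 49021 in gut and 27170, 22582 and 21705 in liver (−1.21 ± 0.38, adjusted p 0.0101). miR-459-5p had 84002, 75914 and 61742 in gut and 38869, 27133 and 22727 in liver (−1.32 ± 0.33, adjusted p 0.00131). The 5 together held 26.9% ± 1.44 of the reads in male gut and 14.99% ± 1.60 in male liver (SD, n = 3). In male liver miR-194a had a mean of 89735, where embryo had 7795, ovary 4344, brain at most 182 and eye 3.59.

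Within each library miR-192 and miR-459-5p were set against miR-194a, and both ratios overlapped between the tissues. The ratio of miR-194b, the intestinal miRNA with the largest difference, was not compared. The log2 ratio of miR-192 to miR-194a was −1.88 ± 0.05 in gut and −1.91 ± 0.12 in liver (SD, n = 3, two-sided exact permutation p = 0.8). That of miR-459-5p to miR-194a was −1.47 ± 0.09 and −1.62 ± 0.17 (exact permutation p = 0.3). With 3 libraries against 3 the smallest p of this test is 0.1, so these values do not show that the ratios are equal. Bulk libraries cannot tell fewer cells of a type from less RNA per cell, and how much intestinal tissue the liver samples held was not tested.

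The smooth muscle pair was lower too. miR-143 had 22296, 23078 and 19460 normalized reads in gut and 11243, 8115 and 5295 in liver (log2 fold change −1.39 ± 0.18, adjusted p 7.92e-07 against no change and 0.0751 against 2-fold). miR-145 had 21140, 16741 and 14380 in gut and 10571, 5750 and 4322 in liver (−1.34 ± 0.25, adjusted p 6.06e-05 and 0.241). In both, male liver replicate 1 was the highest liver library, and without it each was called lower.

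The miR-200 family, which maintains epithelial character by repressing ZEB factors, had 5 of 6 members lower in male liver. The share over all miRNAs was 30.7%, and the median log2 fold change of the family was −1.23. miR-141 changed most, with 1715, 1601 and 1475 in gut and 746, 560 and 455 in liver (−1.44 ± 0.31, adjusted p 0.000400, edgeR quasi-likelihood). The member that did not pass, miR-429a, had 192, 163 and 144 in gut and 122, 96.4 and 77.5 in liver (−0.75 ± 0.38, adjusted p 0.108). With library size alone, only 2 of the 6 members passed.

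miRNAs encoded in the Hox clusters, which record the position of a tissue along the body axis, were also lower. All 4 members of the miR-196 list differed from no change, between −1.27 and −1.43, where 30.7% of all miRNAs were lower. miR-196a had 2763, 2648 and 2396 normalized reads in gut and 1660, 627 and 675 in liver (−1.39 ± 0.30, adjusted p 0.000461), so male liver replicate 1 held more than double each of the others. The list median was −1.34, and −1.97 without that library. Of 6 miR-10 family members 4 were lower, against 30.7% over all miRNAs. miR-10c, the most abundant of them, had 122633, 122043 and 95534 in gut and 70386, 45926 and 35661 in liver (−1.16 ± 0.25, adjusted p 0.000376), and miR-10a-5p had 8860, 8207 and 6752 in gut and 4127, 2164 and 1634 in liver (−1.59 ± 0.30, adjusted p 9.26e-05).

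**Figure D3:**
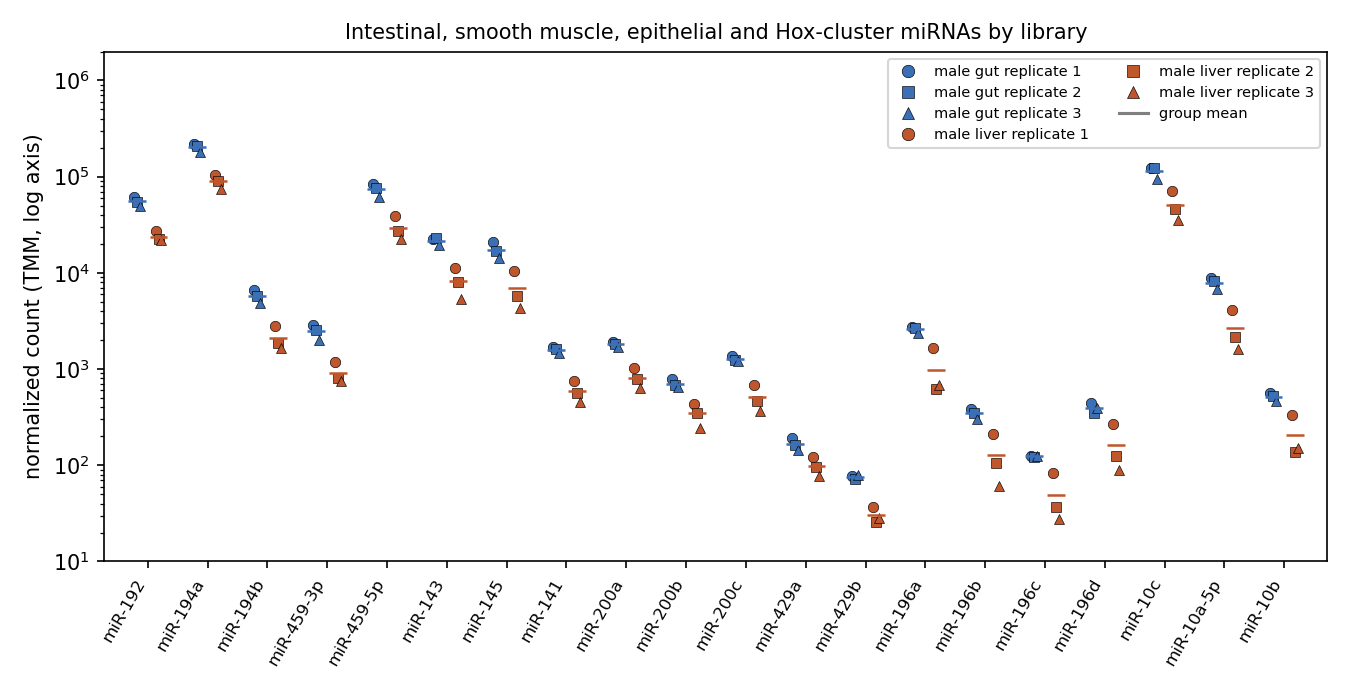
Normalized read count (TMM, log axis) of the intestinal, smooth muscle, miR-200 and miR-196 lists and of miR-10c, miR-10a-5p and miR-10b. Each male gut and male liver library is shown, with short lines at the group means. Other miR-10 members are not plotted. In every plotted miRNA the liver points lie below the gut points, and male liver replicate 1 (round symbol) is the highest liver point. An example is miR-196a, at 1660 against 627 and 675.

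The position of male liver replicate 1 was shared by most of the lower miRNAs. It was the highest of the 3 liver libraries, and thus the nearest to gut, for 65 of the 73 miRNAs lower in male liver (89%), against 131 of all 238 (55%). Among the 47 higher miRNAs it was the lowest liver library for 24 (51.1%). Without it, 79 miRNAs were lower and 41 higher than no change, 70 and 41 of them shared with the full set. The 16 that were then called lower included miR-194b, miR-143, miR-145, miR-10a-5p, miR-10b and all 4 of miR-196.

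Of 8 leukocyte miRNAs, 6 were lower in male liver, against 30.7% over all miRNAs. The 6 included the miR-142 forms, made across blood cell lineages, and miR-223 of the myeloid lineage. miR-142a-3p had 1745, 1681 and 1656 normalized reads in gut and 1106, 852 and 750 in liver (log2 fold change −0.91 ± 0.16, adjusted p 3.05e-05, edgeR quasi-likelihood), and miR-155, induced in activated lymphocytes and macrophages, had 65.7, 72.9 and 57.3 in gut and 30.9, 37.3 and 27.4 in liver (−1.04 ± 0.27, adjusted p 0.00187). miR-146a, a brake on innate immune signalling, went the other way, with 852, 917 and 535 in gut and 1257, 1158 and 1103 in liver (0.61 ± 0.23, adjusted p 0.0328). It no longer differed from no change with the size factors of DESeq2 and without male gut replicate 3, male liver replicate 1 or male liver replicate 2. miR-150 of lymphocytes overlapped between the tissues (0.07 ± 0.17). With library size alone, 4 of the 8 leukocyte miRNAs were lower and 2 were higher. By share of reads the list held 0.570% ± 0.012 in male gut and 0.610% ± 0.043 in male liver (SD, n = 3).

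Where 30.7% of all miRNAs were lower, the miR-23, miR-24 and miR-27 clusters had 7 of 9 tested members lower, with a median of −0.57. With library size alone 2 of these 9 were lower, at a median of −0.19. miR-27c-3p stood out among them, with 19730, 20118 and 16415 normalized reads in gut and 9738, 8037 and 6124 in liver (−1.23 ± 0.14, adjusted p 7.86e-08 against no change and 0.162 against 2-fold). miR-458, in none of the lists above, had 12559, 10564 and 9798 in gut and 5574, 3879 and 3522 in liver (−1.34 ± 0.16, adjusted p 1.90e-07 and 0.0760). The miR-15 and miR-16 family, which restrains the cell cycle, had 6 of 9 members lower, against 30.7% over all miRNAs, at a median of −0.55. With library size alone 0 of the 9 were lower and 1 was higher (edgeR quasi-likelihood), at a median of −0.18, and miR-15a-5p changed from −0.32 to 0.06. Of 14 neuronal miRNAs, 5 were lower, a share near the 30.7% of all miRNAs, at a median of −0.51 against −0.11 over all miRNAs. With the size factors of DESeq2, and without male liver replicate 1, 7 of the 14 were lower. Of all 238 miRNAs, 86 and 79 were lower in these fits. With library size alone, 4 of the 14 were lower and 1 was higher. The 5 lower in the main fit included miR-138 with 1882, 1842 and 1635 in gut and 1007, 587 and 488 in liver (−1.36 ± 0.18, adjusted p 9.95e-07).

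The let-7 family, which favours differentiation, was mostly higher in male liver, by less than 2-fold. Of 10 members 7 were higher, against 19.7% over all miRNAs, 1 was lower and 2 did not pass. The median log2 fold change of the family was 0.58. let-7a had 82489, 88439 and 84367 normalized reads in gut and 112350, 129737 and 132399 in liver (0.55 ± 0.13, adjusted p 0.000683, edgeR quasi-likelihood). let-7g had 3356, 3513 and 3346 in gut and 5783, 7133 and 6593 in liver (0.93 ± 0.13, adjusted p 1.36e-06). let-7d was the exception, with 2888, 2950 and 2682 in gut and 2217, 2043 and 1574 in liver (−0.55 ± 0.13, adjusted p 0.00112). With library size alone, 9 of the 10 were higher and let-7d no longer passed.

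The miR-148 and miR-152 family and part of the miR-30 family were higher in male liver. miR-152 had 177, 171 and 142 normalized reads in gut and 442, 416 and 396 in liver (1.35 ± 0.15, adjusted p 7.74e-08 against no change and 0.0606 against 2-fold), and its relative miR-148 had 539, 502 and 431 in gut and 982, 908 and 955 in liver (0.95 ± 0.14, adjusted p 6.15e-06). In the miR-30 family 3 of 6 members were higher, against 19.7% over all miRNAs, namely miR-30c and both arms of miR-30e. miR-30c had 11133, 10578 and 9349 in gut and 16321, 16596 and 16627 in liver (0.67 ± 0.16, adjusted p 0.00122), while miR-30a and miR-30d did not pass the test. miR-30b had −0.36 ± 0.14 (adjusted p 0.0328), and 0.02 with library size alone, and it passed in only 1 of the 6 fits without 1 library. All 8 miRNAs of the liver list that the study chose from these same libraries were higher than no change here, and 3 of them were called. Over all miRNAs these shares were 19.7% and 5.04%. That list is not independent evidence of its direction.

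Markers of most further cell types did not pass. None of 4 endothelial, 2 erythroid, 3 exocrine pancreas, 3 endocrine and 2 glial miRNAs differed from no change. Over all miRNAs 19.7% were higher and 30.7% lower, and lists this short cannot show a lack of change. Libraries did not overlap for 2 endothelial miRNAs, higher in liver, and for 1 exocrine pancreas and 1 endocrine miRNA, lower there. Over all miRNAs these shares were 24.8% and 32.8%. With library size alone all 4 endothelial ones and 1 of the 2 glial ones were higher. With the size factors of DESeq2, and without male liver replicate 1, 2 of the 3 endocrine ones were lower. The exocrine pancreas list (miR-216a, miR-216b and miR-217) was present in both tissues at sums of 4490 to 5261 in gut and 3830 to 4540 in liver, and the early embryonic miR-430 list summed to at most 3.65 in any library. Of the 2 gonad miRNAs, miR-202-5p had 342, 234 and 406 in gut and 903, 1008 and 526 in liver (1.32 ± 0.30, adjusted p 0.000618, edgeR quasi-likelihood). The other, miR-202-3p, had a log2 fold change of 0.23 and did not pass. Testis had a mean of 51578 for miR-202-5p.

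The most abundant miRNAs were largely common to both tissues. miR-21, often raised in regenerating and inflamed tissue, was first in both at 25.5% ± 1.19 of reads in male gut and 23.2% ± 1.30 in male liver (SD, n = 3). In gut it was followed by miR-194a at 16.1%, miR-10c at 8.95%, miR-92a at 7.76% and let-7a at 6.75%. In liver it was followed by let-7a at 13.0%, miR-92a at 11.1%, miR-194a at 9.21% and miR-10c at 5.15%. The 10 most abundant miRNAs of each library held 80.0% ± 0.14 of reads in gut and 74.2% ± 0.64 in liver. The difference of −5.78 percentage points was larger than the spread within either group (two-sided exact permutation p = 0.1, the smallest possible with 3 against 3).

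The proportion of the 2 arms of a hairpin was compared within libraries. The ratio of the 5p to the 3p arm could be measured in 15 of 34 pairs, those with at least 10 reads of each arm in all 6 libraries, and this comparison was chosen after the data had been seen. The liver libraries lay outside the gut libraries in 2 of the 15 (13.3%), both toward the 5p arm. Without any difference, 3 libraries lie outside 3 others with a probability of 0.1, so this count alone does not show a shift. For miR-199, a miRNA of mesenchyme, the log2 ratio was −0.97, −1.18 and −1.22 in gut and 0.39, 0.69 and 1.10 in liver, so the 3p arm was the more abundant in gut and the 5p arm in liver. Here miR-199-5p was higher in liver by 1.24 ± 0.17 on the log2 scale and miR-199-3p lower by −0.60 ± 0.15 (adjusted p 9.68e-07 and 0.00122, edgeR quasi-likelihood). With library size alone miR-199-3p no longer differed from no change. For miR-181a the log2 ratio was 0.83, 0.59 and 0.43 in gut and 1.48, 1.59 and 1.50 in liver.

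**Figure D4:**
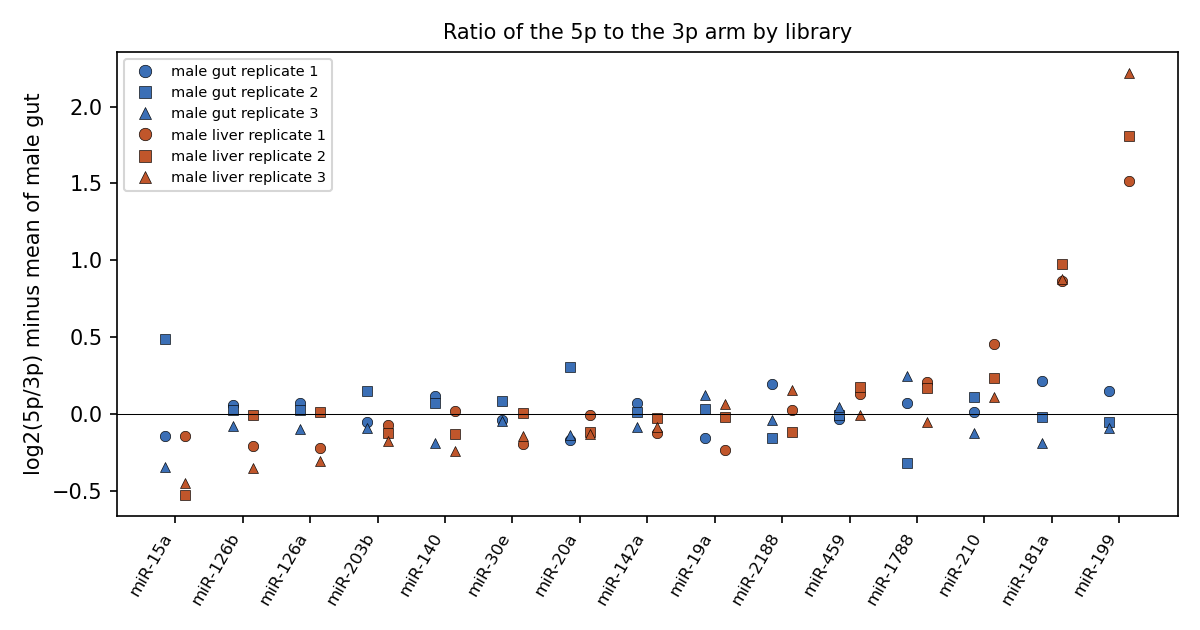
Log2 ratio of the 5p to the 3p arm in each male gut and male liver library, minus the mean of the gut libraries (vertical axis), for the 15 hairpin names with enough reads (horizontal axis). miR-199 and miR-181a stand apart, with liver means 1.85 and 0.91 above gut, and in the other 13 the libraries of the tissues overlap.

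The shift of the arms was 1.85 for miR-199 and 0.91 for miR-181a, each with an exact permutation p of 0.1, the smallest possible. Female libraries, which this choice did not use, gave differences in the same direction of 1.95 and 1.58. A ratio within a library does not depend on scaling, but RefSeq lists 3 hairpins for miR-199 and 5 for miR-181a, whose arms cannot be told apart in these counts.

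The same contrast in females served as a second set of libraries. There 23 miRNAs were called higher in liver (9.66%) and 34 lower (14.3%). Of the 12 miRNAs higher in male liver, 12 had a positive log2 fold change in females and 8 were called there, and miR-194b was lower in both sexes (−2.13 in females). miR-122 had 4.21 in males and 3.48 in females, a difference that did not pass its own test (0.74 ± 0.44, adjusted p 0.227). Of the 73 lower miRNAs, 65 were also negative in females, as were 2 of the 47 higher ones. The share of each sign over all miRNAs in females is not given here.

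The liver to gut difference itself was tested between the sexes, and 63 miRNAs differed (26.5%), 27 with the more positive value in males (11.3%) and 36 with the more negative (15.1%). The miR-196 family had the widest gap, with female liver far lower. In males the list median was −1.34, and −1.97 without male liver replicate 1, against −4.03 in females. The sex difference without that library is not given here. miR-196a had a mean of 2602 in male gut, 987 ± 583 in male liver, 2637 in female gut and 135 ± 63.9 in female liver (SD, n = 3), which gave −1.39 in males and −4.25 in females (difference 2.86 ± 0.44, adjusted p 4.54e-05, edgeR quasi-likelihood). miR-458 went in opposite directions, from 10973 in male gut to 4325 in male liver and from 12335 in female gut to 24642 in female liver (difference −2.34 ± 0.23, adjusted p 1.46e-08). miR-16b was level in males, at 415 and 420, and in females it was 811 in gut and 3598 in liver (difference −2.13 ± 0.21, adjusted p 1.46e-08).

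Several of the miRNAs higher in male liver had a less positive difference in females. miR-130c had 1289 in male liver and 306 in female liver, against 538 and 318 in gut (difference 1.32 ± 0.22, adjusted p 0.000109). miR-203b-3p had 645 in male liver and 112 in female liver against 171 and 89.6 in gut (difference 1.54 ± 0.47, adjusted p 0.0214), and miR-725 had 59.2 and 12.1 against 16.5 and 10.95 (difference 1.52 ± 0.43, adjusted p 0.0133). Female liver libraries had the lowest TMM factors of the series, 0.503 to 0.715 against 0.958 to 1.12 in male liver, and with library size alone 138 differences were more positive in males and 4 more negative. Without male liver replicate 1, 15 were more positive.

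**Figure D5:**
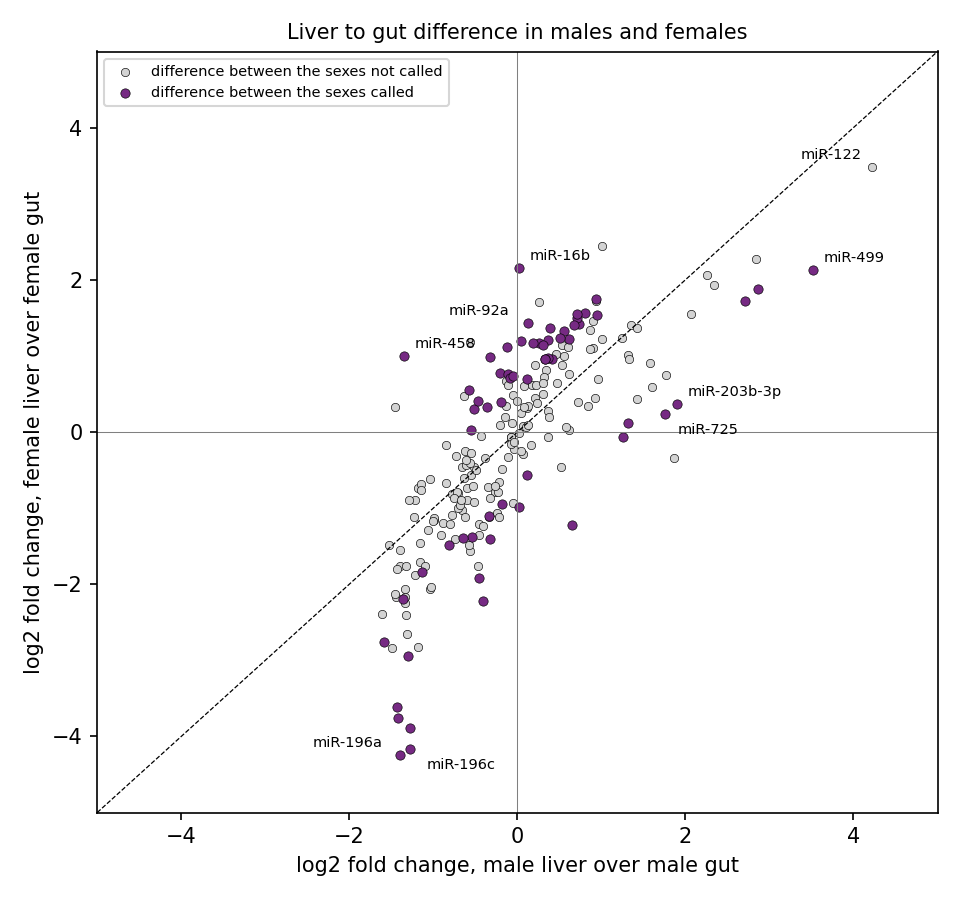
Log2 fold change of liver over gut in males (horizontal axis) and females (vertical axis) for the 224 miRNAs with more than 3 reads in a male gut or male liver library, with a dashed line of equal change. Purple points differed between the sexes, with the miR-196 family lowest at −1.39 in males and −4.25 in females for miR-196a, and miR-458 of opposite sign.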

How the data were processed

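Small RNA from male gut and male liver was sequenced in 3 libraries each. The authors trimmed adapters with cutadapt, counted reads on mature miRNAs of miRBase Release 19 with miRDeep2 and deposited these read counts. The authors also deposited the TMM-normalized table, a signal in which each library is its counts times a single factor. Its values are printed in the text, and the factors were checked against recomputed ones. RefSeq gene order came from assembly GRCz12tu.

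The counts of all 32 libraries were fitted with edgeR 4.0.16 in R 4.3.3 (quasi-likelihood, a coefficient per group). Male liver was set against male gut by glmTreat, with a log2 threshold of 1, and by the F-test of no change, and the difference between the sexes with the F-test. Benjamini-Hochberg adjustment covered 238 miRNAs, and calls needed an adjusted p of at most 0.05. Standard errors came from the F statistic. Steps were tested on simulated data. Replicates are pools of different fishes within a group. Groups came from the labels. Sequencing batches are not given in the sources used here. The standard errors include the spread between libraries as fitted by edgeR, also for low counts. Reads carried no molecular identifiers.

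The text names miRNAs called with no overlap (the 15 largest changes per direction), the 10 most abundant, members of the lists and those that differed between the sexes. The members and lists were chosen with earlier results of these data known. Alternatives were other size factors, library size alone, a filter, DESeq2 1.42.0, a likelihood ratio test, other thresholds, a replicate block, the compared groups alone, and leaving out each library. Same-numbered libraries correlated at 0.12, 0.04 and 0.03, and gut and liver libraries of unlike number at −0.09 to 0.02. The sources do not state whether same-numbered libraries share fishes, and the main fit used no pairs.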

Additional observations from a re-analysis of the deposited data

Results flagged for a closer look

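The difference between liver and gut was not the same in males and females for 63 miRNAs, by an edgeR quasi-likelihood F-test of the difference itself. The male minus female difference of the log2 fold changes was −2.13 for miR-16b, −1.30 for miR-15a-5p and −1.12 for miR-16a, all of the miR-15 and miR-16 family. It was −2.34 for miR-458, −1.30 for miR-92a and −0.92 for miR-17a-5p. With library size alone far fewer differences were more negative in males, as given below. Which of these miRNAs then stayed more negative is not given here. In the other direction it was 2.86 for miR-196a, 2.88 for miR-196c, 2.62 for miR-196d and 1.32 for miR-130c. Among the miRNAs called higher in male liver it was 1.54 for miR-203b-3p, 1.52 for miR-725, 1.39 for miR-499, and 0.99 for both miR-20b and miR-363.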

How the results depend on the processing

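The 12 higher and 1 lower calls became 25 and 0 with library size alone, 22 and 35 when a fold of 2 was asked after the test of no change, and 47 and 73 with that test alone. The lower count was 8 with the size factors of DESeq2, 5 with the DESeq2 test, 2 with the compared groups alone, and 0 by edgeR glmTreat with a filter on low counts (15 at an unadjusted p of at most 0.05) or an adjusted p of 0.01 (18). Leaving out 1 library gave 9 to 18 higher and 0 to 16 lower. With the replicate block, 6 were lower, and 52 sex differences were more positive in males. Whether the replicate numbers pair the libraries is not stated in the sources (correlations 0.12, 0.04 and 0.03). The 27 more positive and 36 more negative sex differences became 138 and 4 with library size alone and 9 and 15 at an adjusted p of 0.01, and the more positive count was 50 with the compared groups alone. Without 1 library there were 15 to 32 more positive and 28 to 32 more negative. The share of the top miRNAs differed by −5.78 points for 10, −3.19 for 5 and −3.79 for 20, and by −6.08 to −5.44 without 1 library. Alternatives added after seeing the data gave 83 higher and 36 lower by the test of no change with library size alone, and 40 to 53 and 59 to 79 without 1 library. The cause of these changes was not tested. In the fits of single miRNAs counted below, none turned direction past a threshold. By the test of no change some did. With library size alone, all 4 endothelial miRNAs were higher. Of these, miR-126a-5p and miR-126b-5p, which may have shared reads, had −0.07 each in the main fit and 0.31 each with library size alone. miR-122, miR-499, miR-363, miR-18c, miR-20b, miR-722, miR-101b and miR-107b kept their calls in all 6 fits without a library. Of the fits of single miRNAs under alternatives, 3223 kept their side of the threshold, 188 passed it newly and 27 no longer passed. These alternatives included the test of no change and a fold of 2 asked after it, both looser than glmTreat. The 188 are therefore in part a change of test. Reads were too few to compare miRNAs at or under 3 reads.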
